A study of Oryctolagus cuniculus with 6 samples.

Results

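The genes described here are 38 genes of glycolysis and of the response to hypoxia in rabbit facial nerve, followed across the FNI group and the FNI+I-125 group. Members were found by gene symbol, and 37 of the 38 were listed among the 17396 genes of the count files. PFKL was listed under a LOC number and took its symbol from a RefSeq gene table, and SLC2A3 was not found by its symbol. All 37 passed a filter on low counts that kept 14003 genes. The members were chosen by their role in the pathways, with the fold changes and p-values of this same contrast already known, so that the fold changes below are given as descriptions with their errors, and a count of members says nothing beyond itself.

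Both groups were wild type Japanese white rabbits, male and 3 to 4 months old, in which the facial nerve had been cut at its main trunk behind the ear. In the FNI+I-125 group, a seed holding 0.8 mCi of the radioactive isotope I-125 was placed 0.3 to 0.5 cm from the nerve during the same surgery. Nerves were collected on day 14, with 3 libraries per group, so that both groups carried the cut and an uninjured nerve was not analysed here. The libraries are bulk RNA from whole nerve pieces, in which more cells of a type and more RNA per cell cannot be told apart.

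Glycolysis splits glucose into pyruvate in the cytosol, and lactate dehydrogenase turns pyruvate into lactate, which leaves the cell through monocarboxylate transporters. Cells that are short of oxygen, and activated immune cells, rely on this route, and Schwann cells are thought to pass lactate to axons. The hypoxia-inducible factors (HIF) are transcription factors whose alpha subunits, among them HIF1A and EPAS1, are marked by prolyl hydroxylases such as EGLN1 and EGLN3 and then destroyed through VHL when oxygen is present. Without oxygen they accumulate and switch on genes for glycolysis, blood vessel growth and matrix formation. Much of this control acts on the protein, which the counts do not measure.

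The libraries held 16031151 to 16798012 counts each, of which the members took 0.506% to 0.787%. Levels are given as CPM in edgeR, the share of a gene in the TMM-scaled counts of its library, in the order of replicates 1, 2 and 3 and with the FNI group first. Libraries of the same group differed in tissue content. The 15 listed genes of a skeletal muscle list of 20 summed to 268 to 448 CPM in the FNI group, and to 7169, 6320 and 308 CPM in FNI+I-125 replicates 1, 2 and 3. Myelin genes of Schwann cells were present in every library, and the 12 genes of that list summed to 7519, 3647 and 42124 CPM in the FNI libraries and to 697, 3790 and 917 CPM in the FNI+I-125 libraries. A salivary or lacrimal gland list of 14 genes, whose KRT18 and LPO were at 0 in some libraries, reached 50354 CPM in FNI replicate 2 and at most 3813 CPM elsewhere. The 12 listed genes of a macrophage list of 14 summed to 373 to 1530 CPM in the FNI group and 2035 to 3186 CPM in the FNI+I-125 group. For none of these lists was the part it plays in the members' values tested, and the values are given beside the results they move with.

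Of the 14 glycolytic enzymes, 12 were higher on average in the FNI+I-125 group, and for 10 of them every FNI+I-125 library lay above every FNI library. Of all genes tested, 51.1% were higher on average and 14.8% were higher without overlap, and nothing is read from the comparison since the members were chosen with this contrast known. These 10 were HK1, HK2, GPI, PFKP, TPI1, PGK1, PGAM1, ENO1, PKM and LDHA, which together cover most steps from glucose to lactate. Their fold changes ran from 1.48 to 3.16. GAPDH, PFKL, LDHB and ALDOC overlapped between the groups. Over the 14 enzymes the median log2 fold change was 0.82, beside 0.01 over all 14003 genes tested.

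PGK1, the enzyme that makes the first ATP of the pathway, had 88.3, 100 and 84.0 CPM in FNI replicates 1, 2 and 3 and 214, 219 and 197 CPM in FNI+I-125 replicates 1, 2 and 3. The libraries within each group lay close together and far from those of the other group. The group means were 90.8 ± 8.30 CPM and 210.1 ± 11.5 CPM (SD, n = 3 each), a 2.31-fold difference and a log2 fold change of 1.21 (standard error 0.12).

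PGAM1, the next enzyme of the pathway, had 145, 156 and 106 CPM in the FNI libraries and 260.9, 260.2 and 262.7 CPM in the FNI+I-125 libraries. The 3 FNI+I-125 libraries were almost level, with a coefficient of variation of 0.494%, against 19.2% in the FNI group. Counting error at their 3992, 4275 and 4475 counts is by itself larger than 0.494%, so nothing is read from this evenness. The means differed by a log2 fold change of 0.95 (standard error 0.17). ENO1, the enolase of most tissues, had 349, 315 and 233 CPM against 677, 697 and 628 CPM, a log2 fold change of 1.16 (standard error 0.19). PKM, the pyruvate kinase that yields the last ATP of the pathway, had 307, 272 and 147 CPM against 801, 689 and 586 CPM. This gave a log2 fold change of 1.52 (standard error 0.31), the largest after that of HK2 among the enzymes.

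At the entry of the pathway, HK2, the inducible hexokinase, had 25.2, 42.8 and 10.3 CPM in the FNI libraries and 82.8, 88.5 and 76.5 CPM in the FNI+I-125 libraries. The FNI libraries were spread over a wide range, with replicate 3 the lowest, whereas the FNI+I-125 libraries were close together. The log2 fold change of HK2 was 1.66 (standard error 0.49). HK1, the hexokinase that most tissues hold at a steady level, had 116, 111 and 83.7 CPM against 158, 149 and 153 CPM, a log2 fold change of 0.56 (standard error 0.16). GPI, which converts glucose 6-phosphate to fructose 6-phosphate, had 222, 255 and 244 CPM against 277, 422 and 405 CPM, so that FNI+I-125 replicate 1 stood just above the FNI range, and scaled by library size alone it lay inside that range. The fold change on the log2 scale came to 0.62 (standard error 0.20).

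PFKP, the platelet-type phosphofructokinase, had 33.8, 35.2 and 12.8 CPM in the FNI libraries and 43.8, 107.5 and 66.3 CPM in the FNI+I-125 libraries. Its FNI+I-125 libraries were spread more widely than those of PGK1 or PGAM1, and its log2 fold change was 1.41 (standard error 0.49). PFKL, the liver-type enzyme for the same step, had 23.8, 23.6 and 31.7 CPM against 24.0, 26.8 and 32.8 CPM, and its log2 fold change of 0.08 (standard error 0.19) was within its error of 0. TPI1, the triosephosphate isomerase, had 204, 257 and 316 CPM against 425, 485 and 347 CPM, a log2 fold change of 0.69 (standard error 0.22). GAPDH, which many assays take as a loading reference, had 280, 298 and 620 CPM against 555, 662 and 444 CPM. FNI replicate 3 lay inside the FNI+I-125 range, and the log2 fold change of GAPDH was 0.47 (standard error 0.36), or 0.92 without that library, and as low as 0.27 without FNI replicate 1 and 0.12 without FNI+I-125 replicates 1 and 2.

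LDHA, the lactate dehydrogenase subunit that favours lactate formation, had 176, 173 and 63.7 CPM in the FNI libraries and 513, 332 and 290 CPM in the FNI+I-125 libraries. On the log2 scale the fold change was 1.46 (standard error 0.44). LDHB, the subunit that favours the use of lactate, had 165, 213 and 180 CPM against 202, 173 and 170 CPM. Its groups covered the same range, and its log2 fold change was -0.03 (standard error 0.15). ALDOC, the aldolase best known from brain, had the lowest log2 fold change of the 14 enzymes, at -1.62 (standard error 0.59). It had 56.8, 144 and 231 CPM in the FNI libraries against 26.3, 42.4 and 71.9 CPM, and FNI+I-125 replicate 3 lay above FNI replicate 1.

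**Figure D1:**
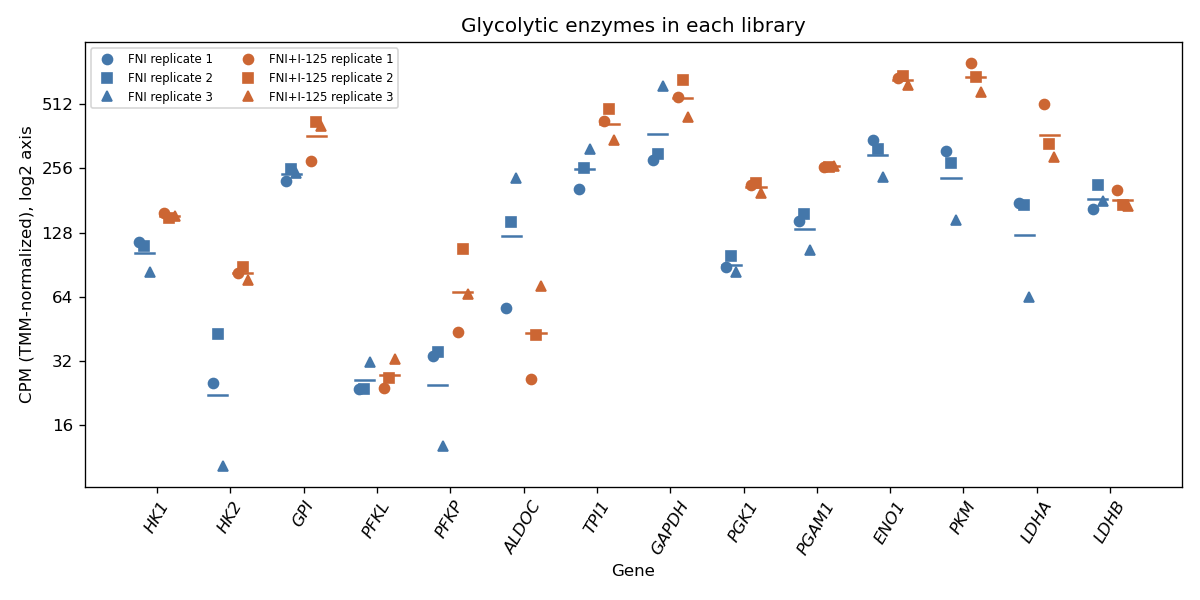
The CPM of the 14 glycolytic enzymes in each library, on a log2 axis, with FNI libraries in blue, FNI+I-125 libraries in orange, a marker shape for each replicate and a bar at the geometric mean of each group. For 10 enzymes all orange points lie above all blue points, whereas GAPDH, PFKL, LDHB and ALDOC overlap.

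FNI replicate 3, the library with the highest myelin gene level, was the lowest of the 6 libraries for 8 of the 10 enzymes without overlap. Leaving it out brought the log2 fold change of HK2 to 1.26, that of LDHA to 1.1 and that of PKM to 1.24, while that of PGK1 became 1.14 and that of ENO1 0.99. The 10 enzymes were picked as those for which every FNI+I-125 library lay above every FNI library. That this held in FNI+I-125 replicate 3, whose skeletal muscle sum lay inside the FNI range, follows from the choice. The macrophage list, at 2478, 3186 and 2035 CPM in FNI+I-125 replicates 1, 2 and 3, was higher in each of them than in any FNI library. Its part in the enzyme levels was not tested. For each library, the median over the 14 enzymes of the difference from the FNI mean log2 CPM was 0.04, 0.17 and -0.20 in FNI replicates 1, 2 and 3. It was 0.78, 0.94 and 0.87 in FNI+I-125 replicates 1, 2 and 3, which thus stood close to each other.

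In the isoforms that skeletal muscle uses, the libraries divided along another line. PFKM, the muscle phosphofructokinase, had 50.4, 53.0 and 58.6 CPM in the FNI libraries and 125, 143 and 51.7 CPM in the FNI+I-125 libraries. FNI+I-125 replicates 1 and 2 were high, and replicate 3 was inside the FNI range. The log2 fold change was 0.98 (standard error 0.37), and without FNI+I-125 replicates 1 and 2 it was -0.10.

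PGAM2, the muscle phosphoglycerate mutase, had 70, 62 and 262 counts in the FNI group against 779, 764 and 42 counts. This was 4.10, 3.91 and 15.5 CPM against 50.9, 46.5 and 2.47 CPM. Its lowest library of all 6 was FNI+I-125 replicate 3, and its log2 fold change of 2.09 had a standard error of 1.12. Without FNI+I-125 replicates 1 and 2 it was -1.70. ENO3, the muscle enolase and not a member, had the same 2 high libraries, with 4.69, 3.09 and 2.66 CPM against 75.2, 68.7 and 3.35 CPM.

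ALDOA, the aldolase of muscle that most other cells also use, was the only isoform of these 3 whose groups did not overlap. It had 529, 572 and 608 CPM in the FNI libraries and 989, 1123 and 766 CPM in the FNI+I-125 libraries, a log2 fold change of 0.75 (standard error 0.20). Replicate 3 was the lowest of the FNI+I-125 libraries but stayed above the FNI range, and without replicates 1 and 2 the log2 fold change was 0.39. The 3 genes with the highest mean CPM of the skeletal muscle list were ACTA1, TPM2 and TTN. ACTA1, the actin of the sarcomere, had 37.5, 2.39 and 18.6 CPM in the FNI libraries and 2236, 2200 and 2.06 CPM in the FNI+I-125 libraries. TPM2, a tropomyosin, had 258, 183 and 314 CPM against 877, 821 and 244 CPM. TTN, the giant protein titin, had 8.49, 5.42 and 4.79 CPM against 839, 605 and 1.64 CPM. PFKM, PGAM2 and the muscle genes were thus high in the same pair of libraries, and MYH4 and MYBPC2 of the muscle list were at 0 in some of the others.

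**Figure D2:**
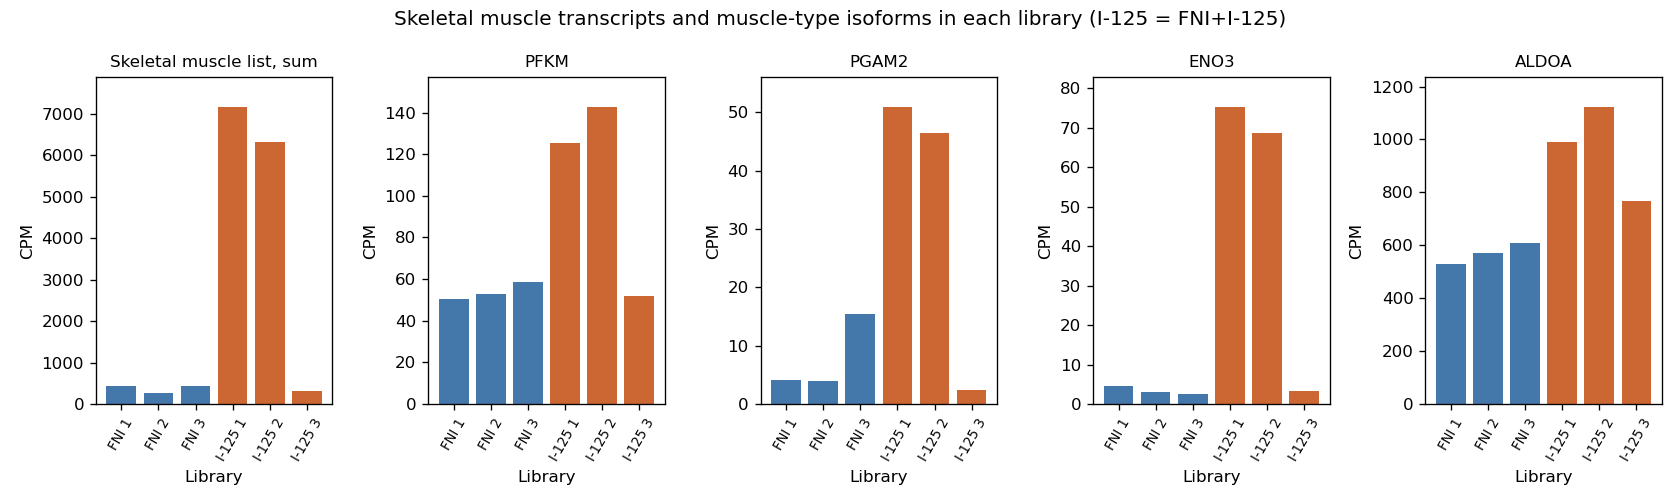
The summed CPM of the skeletal muscle list and the CPM of PFKM, PGAM2, ENO3 and ALDOA in each of the 6 libraries, as bars from 0, with FNI libraries in blue and FNI+I-125 libraries in orange. FNI+I-125 replicates 1 and 2 stand above all other libraries in each panel, and replicate 3 stands above the FNI libraries only for ALDOA.

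Ratios taken within a library do not depend on how libraries are scaled to each other. They are not separate support, since HK2, LDHA, ALDOA and SLC16A3 were each already higher without overlap. How often ratios of other gene pairs overlap was not computed. The log2 ratio of HK2 to HK1 was -2.20, -1.38 and -3.03 for FNI and -0.93, -0.76 and -1.001 for FNI+I-125, so that the inducible hexokinase took a larger share in each of the latter. The log2 ratio of LDHA to LDHB was 0.09, -0.31 and -1.497 against 1.34, 0.94 and 0.78, also without overlap. That of ALDOA to ALDOC was 3.22, 1.99 and 1.39 against 5.23, 4.73 and 3.41, where FNI replicate 1 and FNI+I-125 replicate 3 were near each other. The ratio of PGAM2 to PGAM1 overlapped, with -5.14, -5.32 and -2.78 against -2.36, -2.48 and -6.74. So did that of PFKM to the sum of PFKL and PFKP, with -0.19, -0.15 and 0.40 against 0.89, 0.09 and -0.94.

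**Figure D3:**
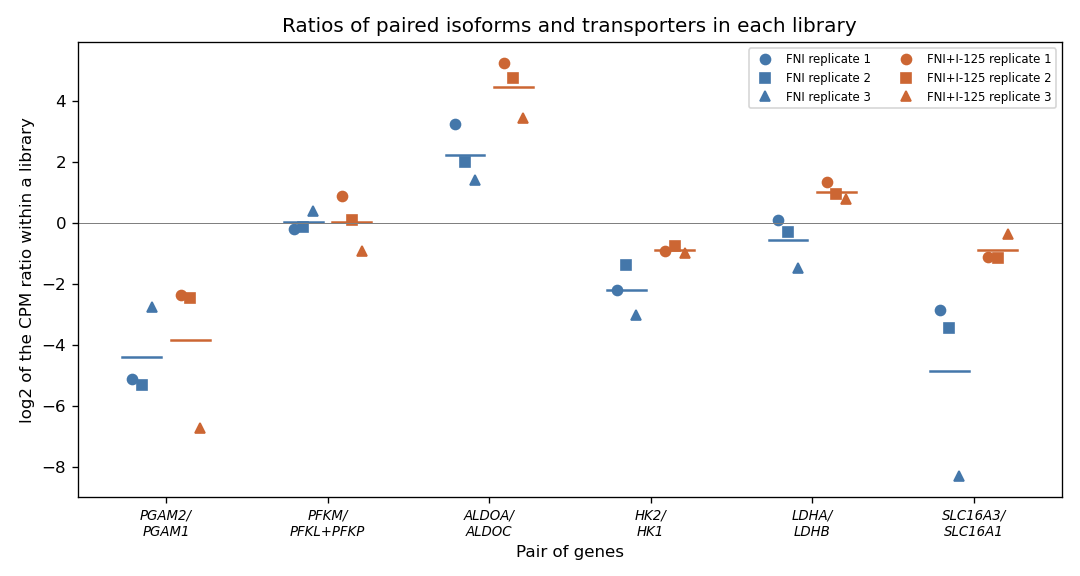
The log2 of the CPM ratio of paired genes within each library, with FNI libraries in blue, FNI+I-125 libraries in orange, a marker shape for each replicate and a bar at the mean of each group. The groups do not overlap for HK2 to HK1, LDHA to LDHB, ALDOA to ALDOC and SLC16A3 to SLC16A1, and they overlap for both ratios of a muscle-type isoform to its counterparts.

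The transporters of glucose and lactate went different ways. SLC16A3, which encodes the lactate exporter MCT4, had 7.20, 5.23 and 0.65 CPM in the FNI libraries and 29.1, 29.3 and 33.9 CPM in the FNI+I-125 libraries. The counts behind these levels were 123, 83 and 11 against 445, 481 and 577. The FNI+I-125 libraries were close together, far above all FNI libraries, and the log2 fold change of 2.82 (standard error 0.77) was the largest of the 37 members. Without FNI replicate 3 it was 2.28. SLC16A1, which encodes the lactate transporter MCT1, had 52.0, 57.6 and 207 CPM against 63.0, 65.0 and 44.3 CPM. Its mean was lower in the FNI+I-125 group through FNI replicate 3 alone, since the log2 fold change of -0.88 (standard error 0.57) became 0.05 without that library. The log2 ratio of SLC16A3 to SLC16A1 was -2.85, -3.46 and -8.32 for FNI and -1.12, -1.15 and -0.39 for FNI+I-125, without overlap.

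SLC2A1, the glucose transporter GLUT1 of perineurium and many other cells, had 183, 94.1 and 584 CPM in the FNI libraries and 25.8, 124 and 124 CPM in the FNI+I-125 libraries. Both groups were widely spread and overlapped. The means differed by a log2 fold change of -1.65 (standard error 0.86), or -0.62 without FNI replicate 3.

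None of the 3 members listed as flux regulators, PFKFB3, PFKFB4 and PDK1, separated the groups. Of all genes tested, 14.8% were higher and 12.3% were lower without overlap, so nothing is read from this. PFKFB3, which makes an activator of phosphofructokinase, had 90.8, 126 and 246 CPM against 82.6, 67.7 and 118 CPM, a log2 fold change of -0.79 (standard error 0.41) that was -0.30 without FNI replicate 3. PFKFB4, its relative, had 17.4, 24.9 and 16.8 CPM against 19.7, 19.5 and 45.1 CPM, with FNI+I-125 replicate 3 alone above the rest. This gave a log2 fold change of 0.51 (standard error 0.39), or -0.01 without that library. PDK1, a kinase that holds back the entry of pyruvate into mitochondria and a known HIF target, had 22.4, 21.2 and 23.0 CPM against 20.5, 22.0 and 19.7 CPM. The fold change on the log2 scale came to -0.10 (standard error 0.12).

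**Figure D4:**
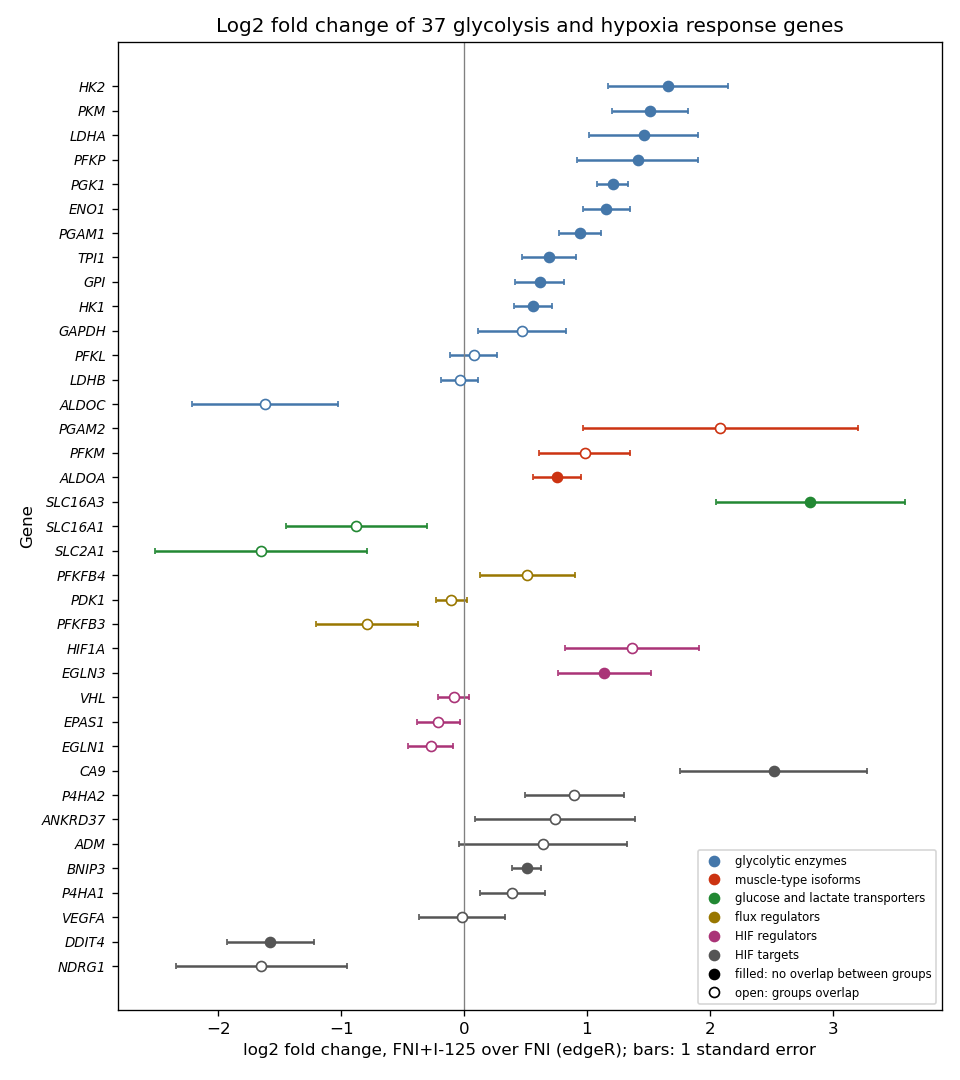
The log2 fold change of FNI+I-125 over FNI for the 37 listed members, ordered by role, with bars of 1 standard error. Filled points mark the 16 members whose groups did not overlap, 15 of them higher and DDIT4 lower, and most of the filled points are glycolytic enzymes. Over all genes tested, 14.8% were higher and 12.3% were lower without overlap.

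The 5 regulators of the HIF pathway gave a mixed picture, with a median log2 fold change of -0.08. HIF1A, the alpha subunit that responds in most cells, had 197, 252 and 97.9 CPM in the FNI libraries and 790.2, 239 and 382 CPM in the FNI+I-125 libraries. FNI+I-125 replicate 2 lay below FNI replicate 2, so that the groups overlapped, and replicate 1 was far above the rest. The log2 fold change was 1.37 (standard error 0.54) and became 0.77 without FNI+I-125 replicate 1. The sum of the 8 listed genes of a neutrophil list of 10 was also highest in this library. It was 1510 CPM against 17.3 to 151 CPM in the other 5. MPO, a defining gene of the list, was at 0 in some libraries.

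EPAS1, the alpha subunit best known from endothelium, had 621, 645 and 612 CPM against 650.4, 469.7 and 503 CPM. On the log2 scale the fold change was -0.21 (standard error 0.17). VHL, the recognition subunit of the ligase that removes the alpha subunits, had 57.6, 47.4 and 56.7 CPM against 54.3, 48.0 and 50.4 CPM, a log2 fold change of -0.08 (standard error 0.13). EGLN1, the main oxygen-sensing hydroxylase, had 52.6, 49.4 and 75.5 CPM against 48.4, 48.3 and 50.5 CPM, and its log2 fold change of -0.27 (standard error 0.18) was -0.07 without FNI replicate 3. EGLN3, a hydroxylase that HIF itself induces, was the only regulator of the 5 without overlap, where 14.8% of all genes tested were higher without overlap. It had 14.2, 17.4 and 22.7 CPM in the FNI libraries and 23.5, 35.8 and 60.7 CPM in the FNI+I-125 libraries, so that the highest FNI and the lowest FNI+I-125 library almost met, and scaled by library size alone they overlapped. The means differed by a log2 fold change of 1.14 (standard error 0.38), or 0.70 without FNI+I-125 replicate 3.

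Of the 9 further HIF targets, BNIP3 and CA9 were higher and DDIT4 was lower without overlap, and the other 6 overlapped. Over all genes tested, 14.8% were higher and 12.3% were lower without overlap, and nothing is read from these counts. BNIP3, which acts in the removal of mitochondria, had 73.3, 70.4 and 80.5 CPM in the FNI libraries and 114, 109 and 96.8 CPM in the FNI+I-125 libraries, a log2 fold change of 0.51 (standard error 0.12). CA9, a carbonic anhydrase that is widely used as a mark of hypoxic cells, was near the limit of detection. Its 3, 6 and 1 counts in the FNI group stood against 15, 12 and 32 counts, at most 1.88 CPM. It passed the filter only through the FNI+I-125 group and so had to differ, and its log2 fold change of 2.52 had a standard error of 0.76.

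DDIT4, an inhibitor of mTORC1 that hypoxia, glucocorticoids and DNA damage induce, went the other way. It had 346, 139 and 238 CPM in the FNI libraries and 98.0, 68.1 and 76.5 CPM in the FNI+I-125 libraries, a log2 fold change of -1.58 (standard error 0.35). It was the only member of the 37 that was lower without overlap, where 12.3% of all genes tested were. NDRG1, a hypoxia target that Schwann cells express strongly, had 490.0, 304 and 1818 CPM against 212, 356 and 265 CPM. FNI replicate 3, in which the myelin list was also highest, held most of the difference, and the log2 fold change of -1.65 (standard error 0.70) was -0.53 without it.

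VEGFA, the main growth factor for blood vessels, had 199, 231 and 104 CPM in the FNI libraries and 225, 128 and 176 CPM in the FNI+I-125 libraries. Its groups covered the same range, with a log2 fold change of -0.01 (standard error 0.35) whose sign turned in 5 of 14 alternatives. ADM, a peptide that widens vessels, had 12.9, 18.5 and 24.9 CPM against 60.6, 10.04 and 17.3 CPM, with FNI+I-125 replicate 1 alone above the FNI range. Its log2 fold change of 0.64 (standard error 0.68) turned to -0.45 without that library and was 1.03 without FNI+I-125 replicate 2. P4HA1 and P4HA2, the prolyl hydroxylases of collagen, were also highest in FNI+I-125 replicate 1. P4HA1 had 95.3, 93.0 and 123 CPM against 190.0, 107 and 112 CPM, and P4HA2 had 184, 135 and 90.0 CPM against 392, 178 and 192 CPM. Their log2 fold changes were 0.39 (standard error 0.27) and 0.90 (standard error 0.40), or 0.08 and 0.44 without that library. The sum of the 10 genes of a fibroblast list was highest there too, at 192733 CPM against 70040 to 140061 CPM in the other 5 libraries. ANKRD37 had 7.38, 4.47 and 2.42 CPM against 8.43, 12.7 and 2.70 CPM, a log2 fold change of 0.74 (standard error 0.65) that ran from 0.20 without FNI+I-125 replicate 2 to 1.20 without FNI replicate 1 and was -0.86 without FNI+I-125 replicates 1 and 2.

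**Figure D5:**
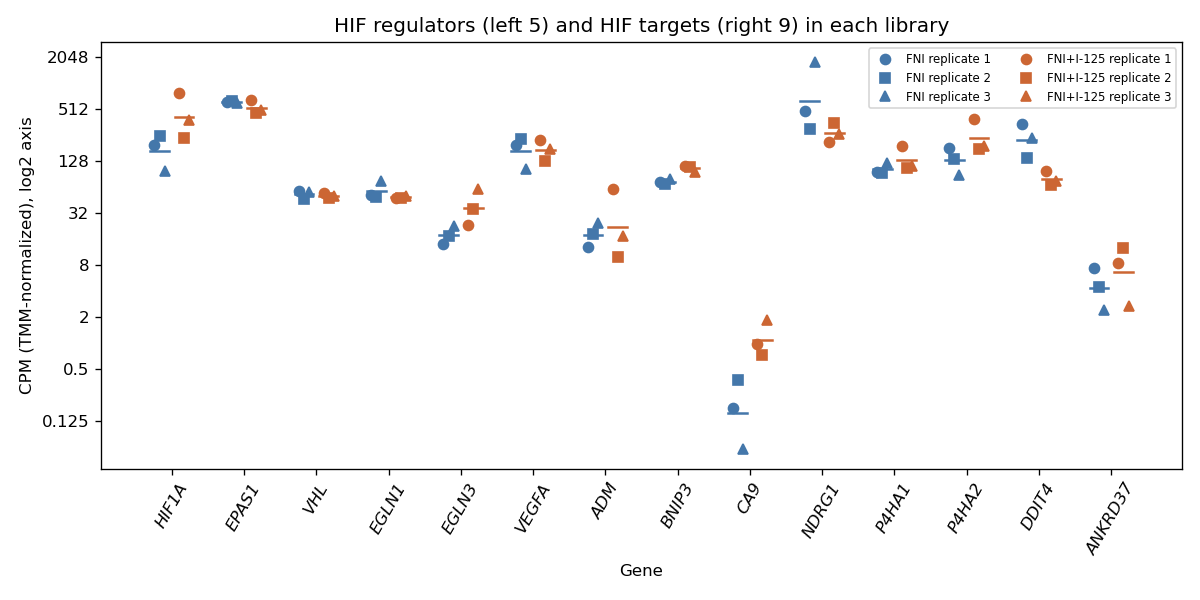
The CPM of 5 HIF regulators and 9 HIF targets in each library, on a log2 axis, with FNI libraries in blue, FNI+I-125 libraries in orange, a marker shape for each replicate and a bar at the geometric mean of each group. EGLN3, BNIP3 and CA9 are higher and DDIT4 is lower without overlap, and FNI+I-125 replicate 1 is the highest point for HIF1A, ADM, P4HA1 and P4HA2.

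Set side by side, 10 of 14 glycolytic enzymes and 3 of 14 HIF regulators and targets were higher without overlap, where 14.8% of all genes tested were, and the medians of their log2 fold changes were 0.82 and 0.45. The 3 HIF genes were EGLN3, BNIP3 and CA9, of which CA9 passed the filter only through the FNI+I-125 group. The enzymes and the HIF genes are not separate sets, since HIF switches on genes for glycolysis too. PDK1, a known HIF target, is in neither. The median difference from the FNI mean log2 CPM, over the 14 HIF regulators and targets, was 0.51, -0.05 and 0.00 in FNI+I-125 replicates 1, 2 and 3. In these 3 libraries 12, 12 and 12 of the 14 enzymes stood above their FNI mean, and 11, 7 and 7 of the 14 HIF genes did. For the 10 enzymes without overlap this follows from the lack of overlap. The share of all genes above their FNI mean was not computed, so nothing is read from these counts. For the 3 muscle-type isoforms the median difference was 1.22, 1.41 and -0.06.

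Of the 37 members, 25 had a positive log2 fold change, where 51.1% of all genes tested had one. Without overlap, 15 were higher and 1 was lower, against 14.8% and 12.3% of all genes tested. At an unadjusted p under 0.05 in edgeR's quasi-likelihood test, 17 members were higher and 2 were lower, where 9.23% and 7.73% of all genes were called. Nothing is read from these shares either. No member passed an adjusted p under 0.05 with a |log2 FC| of 1.5 or more, and neither did any other gene (0% called). The adjusted p of the members in this edgeR test, with the Benjamini-Hochberg method over 14003 genes, lay between 0.280 and 0.985. DESeq2 called HK2, PKM and SLC16A3 higher and DDIT4 lower by the same criterion, where it called 1.69% of all genes higher and 1.16% lower, and limma-voom called 0 members. At an adjusted p under 0.05 alone, DESeq2 called 10 members higher and 1 lower, where it called 3.66% and 2.71% of all genes. Several of these enzymes have near-identical processed copies in mammalian genomes, and how reads shared with such copies were counted is not given in the sources used here.

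Other genes of the same pathways were taken from lists written for this purpose. Of 42 further genes of glycolysis and pyruvate use, 39 were listed and 34 were tested, of which 18 were higher and 16 lower, with a median log2 fold change of 0.02. At the unadjusted p, 7 of the 34 were higher and 4 were lower, where 9.23% and 7.73% of all genes were. PGM1, which links glycogen to glycolysis, had 49.7, 39.6 and 35.9 CPM in the FNI libraries and 76.8, 76.3 and 61.1 CPM in the FNI+I-125 libraries, a log2 fold change of 0.77 (standard error 0.17). ENO3, given above, had a log2 fold change of 3.81 (standard error 1.09) through FNI+I-125 replicates 1 and 2. PDHA1, a subunit of pyruvate dehydrogenase, had 83.4, 87.8 and 82.6 CPM against 104, 120 and 103 CPM, a log2 fold change of 0.37 (standard error 0.11).

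The kinases that restrain pyruvate dehydrogenase went both ways. PDK4, which fasting and fatty acids induce, had 115, 75.4 and 253 CPM in the FNI libraries and 43.5, 37.8 and 45.1 CPM in the FNI+I-125 libraries, a log2 fold change of -1.81 (standard error 0.45). PDK2 had 51.0, 61.4 and 55.6 CPM against 31.5, 43.6 and 33.5 CPM, a log2 fold change of -0.63 (standard error 0.17). Both were lower without overlap, and since they were picked for their small p-values, nothing is read from this. PDK3, a further kinase of this family that is named here after its values were seen, had 10.7, 7.50 and 6.92 CPM against 11.8, 12.6 and 15.1 CPM and was higher without overlap, with a log2 fold change of 0.65 (standard error 0.24). GPD1, which links glycolysis to glycerol in fat cells, had a log2 fold change of -1.94 (standard error 0.71), with overlap. The 6 listed genes of an adipocyte list of 8 summed to 1636 to 4736 CPM in the FNI group and 1028 to 1564 CPM in the FNI+I-125 group, and 0 of them were at 0 in any library.

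Of 16 other regulators of the HIF pathway, 14 were tested, with 6 higher and 8 lower and a median log2 fold change of -0.10. At the unadjusted p, 1 of the 14 was higher and 1 was lower, where 9.23% and 7.73% of all genes were. HSP90AA1, a chaperone that holds HIF1A among many other proteins, was the only 1 of them higher at the unadjusted p. It had 620, 581 and 433 CPM in the FNI libraries and 934, 805 and 857 CPM in the FNI+I-125 libraries, a log2 fold change of 0.67 (standard error 0.19). HIF3A, an alpha subunit with inhibiting forms that was listed under a LOC number, was the only 1 lower, with 4.04, 1.39 and 27.8 CPM against 0.20, 1.1 and 0.53 CPM. FNI replicate 3 held most of its counts, and its log2 fold change was -4.17 (standard error 1.30).

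Of 40 other HIF targets, 38 were tested, with 25 higher and 13 lower and a median log2 fold change of 0.17. At the unadjusted p, 11 of the 38 were higher and 3 were lower, where 9.23% and 7.73% of all genes were. PLIN2, the coat protein of lipid droplets, had 50.4, 52.8 and 42.6 CPM in the FNI libraries and 115, 88.9 and 96.0 CPM in the FNI+I-125 libraries, a log2 fold change of 1.04 (standard error 0.15). TFRC, the transferrin receptor that brings iron into cells, had 38.3, 71.9 and 44.2 CPM against 209, 426 and 240 CPM, a log2 fold change of 2.50 (standard error 0.38). ERO1A, an oxidase of the endoplasmic reticulum, had 55.2, 53.5 and 57.9 CPM against 79.9, 102 and 89.6 CPM, a log2 fold change of 0.70 (standard error 0.13). None of these 3 overlapped between the groups. They were picked for their small p-values, so nothing is read from the lack of overlap.

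ZNF395, the target with the smallest p-value among those lower, had 65.5, 63.2 and 74.8 CPM in the FNI libraries and 37.7, 41.0 and 47.4 CPM in the FNI+I-125 libraries, a log2 fold change of -0.69 (standard error 0.14). FLT1 and TEK, receptors of endothelial cells, had log2 fold changes of -0.41 (standard error 0.11) and -0.56 (standard error 0.20), also without overlap. These genes too were picked for a small p-value, so nothing is read from the lack of overlap. The 9 listed genes of an endothelial list of 10, which includes TEK, summed to 2551 to 3096 CPM in the FNI group and 1860 to 3041 CPM in the FNI+I-125 group.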

How the data were processed

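Whole facial nerve RNA of 3 FNI and 3 FNI+I-125 libraries was sequenced. The authors prepared stranded mRNA libraries, and the submitters' processing notes name HISAT2 and the genome build OryCun2.0. The counting program is not given in the sources used here. The deposited files hold raw counts per gene, 1 file per library, without normalization. For 542 of 2992 LOC numbers a symbol was found in a RefSeq table (assembly mOryCun1.1), and since its build differs, no coordinates are given. Sequences were not analysed here.

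Testing used edgeR 4.0.16 in R 4.3.3 (filterByExpr with a minimum count of 10, TMM, glmQLFit and glmQLFTest at default settings, two-sided, Benjamini-Hochberg over 14003 genes). Standard errors were derived from the F statistic. The alternatives were DESeq2 1.42.0, limma 3.58.1 (voom), other scalings and filters, a replicate block and leaving out libraries. Leaving out FNI+I-125 replicates 1 and 2 together was chosen after seeing the data. The members, the 6 groups they fall into and the other lists were chosen with earlier results of these data known. All 37 listed members are described. Of each pathway list the 3 genes of lowest p in each direction are named where their unadjusted p was under 0.05, and of the muscle list the 3 with the highest mean CPM. MYH4, MYBPC2, KRT18, LPO and MPO are named for their zeros. The tests were checked on simulated counts. The study's methods give 3 rabbits per group, but nothing ties a library to a rabbit, and p-values measure the spread between these libraries. The 6 libraries all differed from each other. CPM at low counts is limited by counting error.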

Additional observations from a re-analysis of the deposited data

How the results depend on the processing

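The count of members past the adjusted criterion was 0 under every alternative with edgeR and limma-voom, and 4 with DESeq2. At the unadjusted p, the 17 higher members became 12 to 16 with each library left out and 7 without FNI+I-125 replicates 1 and 2 together, where the lone library of that group is assumed to vary like the others. The 2 lower members became 4 with DESeq2 and 1 to 4 with each library left out. They were 1 without FNI replicate 3, FNI+I-125 replicate 1 or FNI+I-125 replicate 2, and 4 without FNI replicate 1. Of all genes tested, 1082 were lower in the edgeR test with all libraries and 1517 with DESeq2. With each library left out, 532 to 1081 were lower. The 1 member lower without overlap became 2 with library size only, 3 with upper-quartile normalization and 2 to 6 with each library left out. The count was 9 without FNI+I-125 replicates 1 and 2 together. Fewer libraries overlap less often. The 15 higher became 13 with library size only, where GPI and EGLN3 overlapped and the enzymes without overlap went from 10 to 9. They became 15 to 18 with each library left out and 19 without both of those libraries. Of all genes tested, 14.8% were higher without overlap with all libraries, and 14.1% with library size only. That share was 16.5% to 20.8% with each library left out and 28.8% without both.

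The median log2 fold change of the glycolytic enzymes stayed between 0.74 and 0.88 with each library left out and was 0.82 without both libraries. That of the HIF targets was 0.36 with limma-voom, 0.35 with the replicate block, 0.078 to 0.56 with each library left out (0.078 without FNI+I-125 replicate 1) and -0.052 without both libraries. The cause of the shifts with limma-voom and the block was not tested. That of the muscle-type isoforms was 0.69 to 1.30, and -0.10 without both libraries. Deviations of same-numbered libraries from their group means had Pearson's r of 0.05, -0.19 and -0.14 across genes. With 3 libraries per group that differ in tissue content, these values cannot show whether the replicate number pairs the libraries. Of 554 values of single members under the alternatives, 546 moved by less than the spread between replicates and 8 moved by more. Leaving out 1 of 3 libraries can seldom move a mean by that spread, so the 546 say little about how firm the values are. The 8 were those of PFKM, PGAM2, ALDOA, PDK1, BNIP3, CA9 and ANKRD37 without FNI+I-125 replicates 1 and 2, and that of CA9 without FNI replicate 2. CA9 is limited by its few counts, and the other members by the spread between 3 libraries.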
